A study of Mus musculus with 2 samples.

Results

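Yap1, Wwtr1, Tead1, Lats2, Amotl2, Ankrd1, Ccn1 and Ccn2, 8 of the 32285 genes counted, were followed as the Hippo-YAP/TAZ pathway and its CCN targets in cells of the mouse fracture callus. They were chosen by gene symbol and not by any measured value, and all 8 were found in both count matrices. Piezo1 and Trpv4, which encode mechanosensitive cation channels, were measured in the same way as a reference.

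Single-cell RNA sequencing (scRNA-seq) was performed on calluses, the repair tissue bridging a broken bone, taken by enzyme digestion from wild-type C57BL/6J mice after femoral fracture. The design names 10 days (n = 5) and 20 days (n = 5) post-fracture, but the labels give neither of the 2 libraries, MGJ and MGJ2, a day. Both libraries therefore remained without a group, they were never compared as time points, and every value other than the correlations over classes was calculated within 1 library. The barcodes do not tell mice apart, so each library counted as 1 sample, no p-value was calculated, and the 95% intervals given cover counting error only.

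The Hippo pathway is a kinase cascade in which LATS kinases phosphorylate YAP (Yap1) and TAZ (Wwtr1) and hold them out of the nucleus. When the cascade is quiet, as on a stiff matrix or under stretch, YAP and TAZ enter the nucleus, bind DNA through TEAD factors and switch on genes such as Ccn1, Ccn2 and Ankrd1. In cartilage, Ccn2 (connective tissue growth factor) is known as a product of hypertrophic chondrocytes, the enlarged cells that make Col10a1 before cartilage is replaced by bone.

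The sequences before the RefSeq transcription starts are shown because TEAD factors read a short DNA core, GGAATG, so that the letters can be read beside the levels. RefSeq promoters (build GRCm38.p6) were matched for 6 of the 8 members, with none for Tead1 and Ccn2. Over the 250 bases before the start and on both strands, 5 of these 6 members held GGAATG (Wwtr1, Ccn1, Yap1, Amotl2 and Ankrd1), Ankrd1 held it at 2 positions, and Lats2, Piezo1 and Trpv4 had none in their windows. Of all 32851 listed promoters, 12.6% held the core at least once and 1.02% at least 2 times in the same length. Against the GENCODE gene models used below, only the windows of Ccn1, Yap1 and the first Wwtr1 start lay outside the members' genes. The windows of Amotl2, Ankrd1 and both Lats2 starts lay inside the gene, downstream of its outermost annotated start, and annotated exons covered 136 bases of the Amotl2 window and all 250 bases of the Ankrd1 window. The AP-1 motif TGANTCA, present in 6.75% of all promoters, was not found in the windows of the members. A match is a description of these letters and no test was made of it. Capitals mark the core, written as CATTCC where it lies on the other strand. The whole 250-base windows of Ccn1, on the minus strand at chr3:145649986-145650235, and Wwtr1, on the minus strand at chr3:57575911-57576160, read 5′ to 3′ as follows.
Ccn1: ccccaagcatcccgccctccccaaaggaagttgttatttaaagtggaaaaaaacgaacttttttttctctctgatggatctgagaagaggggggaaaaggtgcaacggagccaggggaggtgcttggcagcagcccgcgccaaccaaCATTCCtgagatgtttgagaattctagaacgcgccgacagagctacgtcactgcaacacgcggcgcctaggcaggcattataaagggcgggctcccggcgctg
Wwtr1: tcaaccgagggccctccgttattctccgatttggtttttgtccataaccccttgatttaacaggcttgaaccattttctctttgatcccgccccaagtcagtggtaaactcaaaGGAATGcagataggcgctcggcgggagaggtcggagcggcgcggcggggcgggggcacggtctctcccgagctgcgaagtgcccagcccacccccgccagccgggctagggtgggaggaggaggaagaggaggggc
The core lay 103 bases before the Ccn1 start and 136 bases before the Wwtr1 start. The cores of the other members are given with the surrounding bases. That of Yap1 (minus strand, chr9:8004720-8004749) lay 141 bases before the RefSeq start, that of Amotl2 (plus strand, chr9:102717727-102717756) 65 bases before it, and those of Ankrd1 (minus strand, chr19:36120037-36120066 and chr19:36119950-36119979) 210 and 123 bases before it, both within annotated exon sequence.
Yap1: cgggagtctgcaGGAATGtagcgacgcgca
Amotl2: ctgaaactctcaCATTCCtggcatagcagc
Ankrd1, distal core: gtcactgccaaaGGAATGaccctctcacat
Ankrd1, proximal core: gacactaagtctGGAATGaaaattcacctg

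After the filters, 13322 barcodes of MGJ (median 5026 unique molecular identifiers, UMIs, over all its barcodes) and 7568 of MGJ2 (median 4952) were kept, and 13 kept barcodes occurred in both libraries. The cells formed 34 clusters, 20 of them with over 90% of their cells from 1 library, which were named from marker lists as chondrocyte-like, endothelial-like and so on. Classes of at least 50 cells numbered 18 in MGJ (6 stromal-like) and 13 in MGJ2 (2 stromal-like, chondrocyte and endothelial). Stromal-like here covers chondrocyte-, osteoblast-, fibroblast-, marrow stromal-, endothelial- and mural-like cells (4548 cells in MGJ and 236 in MGJ2). Levels are UMIs per 1000000 UMIs of the class (CPM). An order of levels is therefore per UMI and not per cell. Median depths differed, at 21079.5 UMIs in chondrocyte-like and 5947.5 in endothelial-like cells of MGJ. The chondrocyte-like cells carried Col2a1, the main collagen of cartilage, at 56111 CPM in MGJ and 45545 CPM in MGJ2. Col2a1 was also counted in every ranked blood class, between 349 CPM in osteoclast-like and 4903 CPM in erythroid-like cells of MGJ and between 20.8 CPM in osteoclast-like and 138 CPM in NK-like cells of MGJ2. Each member's level in a class was therefore set beside its chondrocyte-like level multiplied by the class's share of the chondrocyte-like Col2a1 level, called the Col2a1-scaled value. This value covers RNA from cartilage only, not free RNA or doublets of other classes. Within cartilage, 284 cells of MGJ and 10 of MGJ2 fell in sub-clusters with neutrophil or macrophage genes in the lead and were set aside.

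With stromal-like set over haematopoietic-like cells, 6 of the 7 members with enough UMIs were at least 2-fold higher in both libraries: Yap1, Wwtr1, Tead1, Amotl2, Ccn1 and Ccn2. Of all genes tested, 32% in MGJ and 22.8% in MGJ2 were higher by that rule (19.1% and 26.2% were lower), a ratio of at least 2 with at least 50 UMIs over the cells compared. The median ratio of the 7 members was 33.5 in MGJ, against 1.14 over all 14516 genes tested, and 250.4 in MGJ2, against 0.901 over 12949 genes. Lats2 was the exception, with a ratio of 0.594 (0.551 to 0.64) in MGJ and 0.751 (0.655 to 0.858) in MGJ2. Ankrd1 had too few UMIs to be tested. The ratios of the 6 members ran from 26.4 for Amotl2 to 42.3 for Wwtr1 in MGJ and from 51.7 for Amotl2 to 408 for Ccn1 in MGJ2. Their size depended on the processing: with each cell named by its highest marker score they were lower, from 10 for Yap1 to 14.3 for Ccn2 in MGJ, and with the neutrophil-like level subtracted Ccn1 reached 483 in MGJ and Tead1 1356 in MGJ2. Col2a1 was counted in the same blood cells, and the part of free cartilage RNA in these ratios was not tested.

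**Figure D1:**
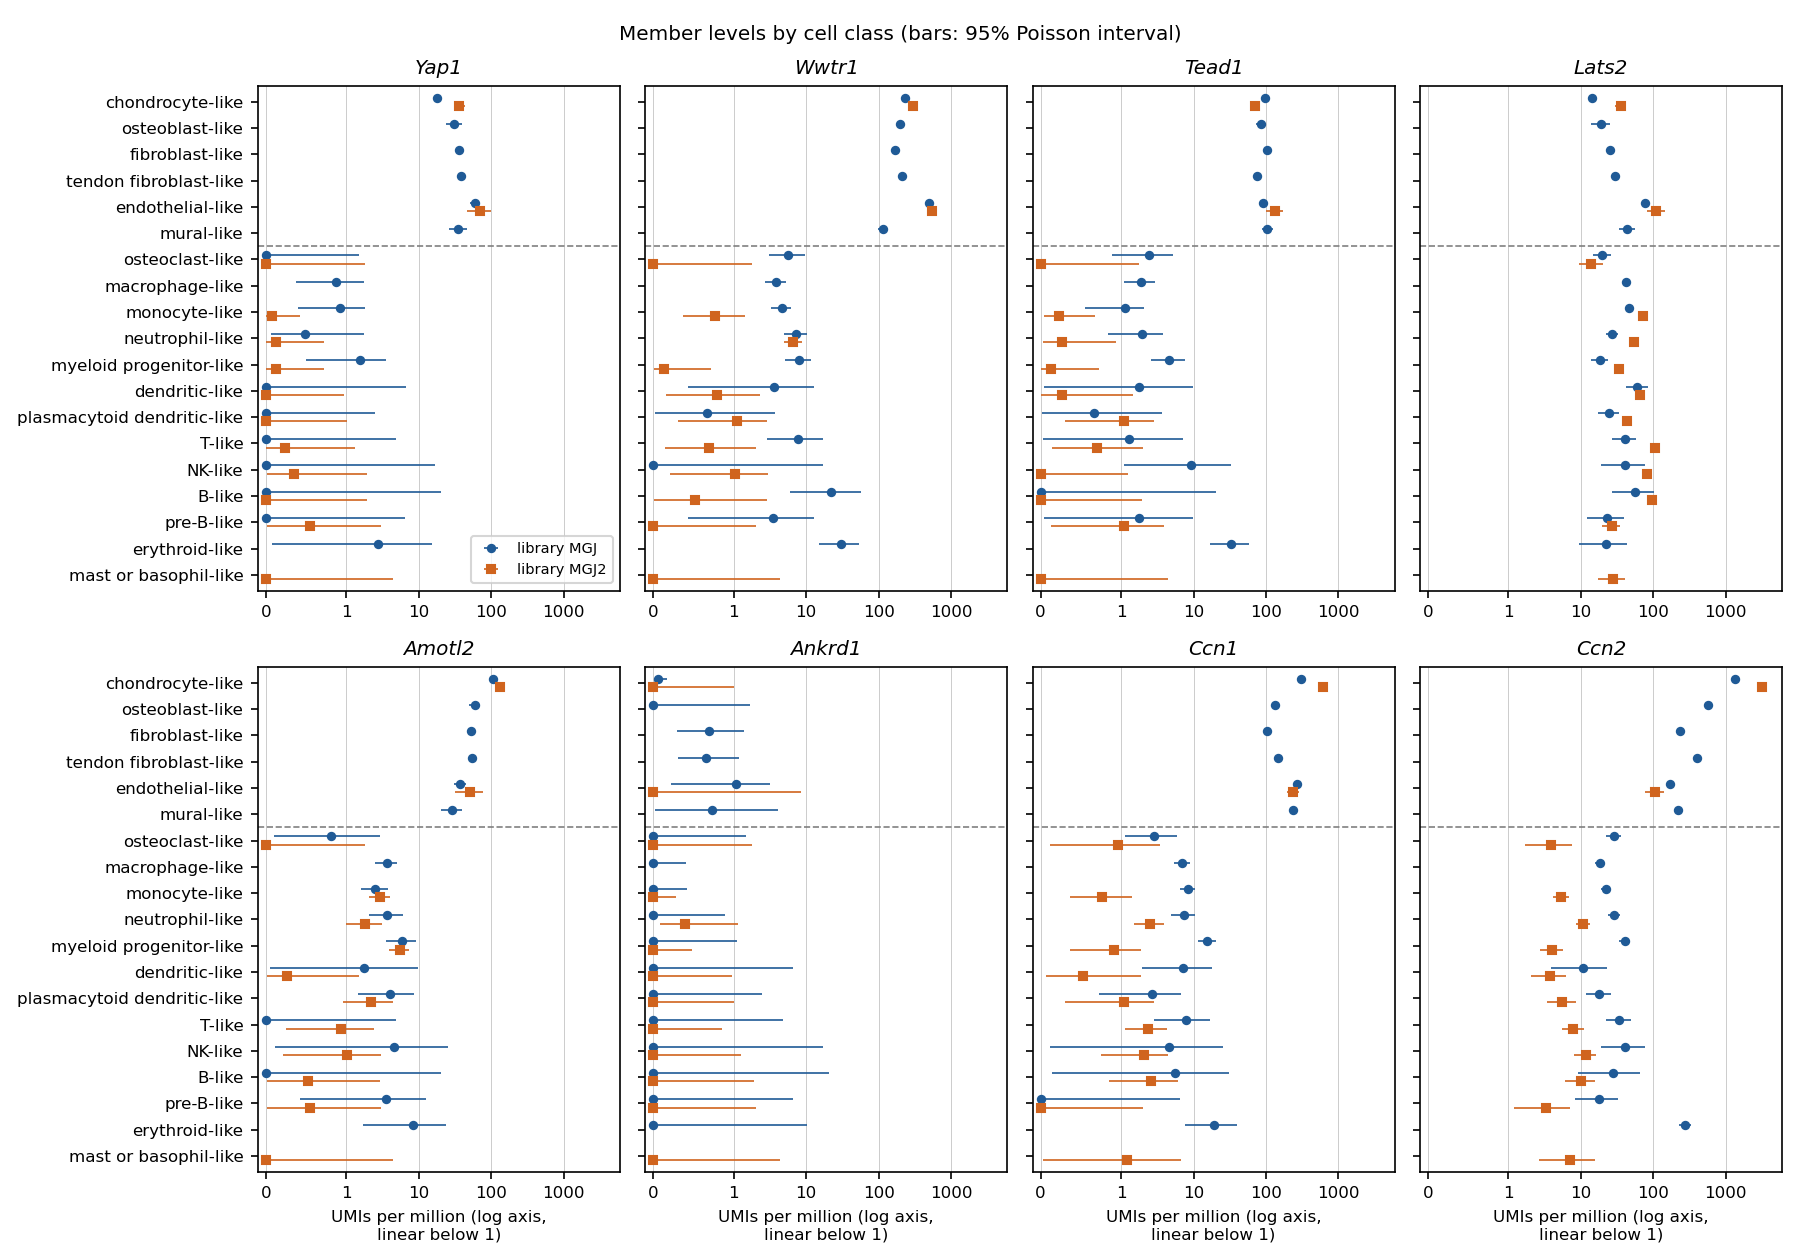
Level of each member (CPM, log axis, linear below 1) in each cell class of at least 50 cells, with circles for MGJ, squares for MGJ2, bars for the 95% Poisson interval and a dashed line between stromal-like (above) and haematopoietic-like classes (below). Lats2 is spread over all classes, Ankrd1 stays at or under 1.08 in MGJ, and the other 6 members sit to the right in the stromal-like classes.

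Yap1, the transcriptional coactivator YAP, was highest in endothelial-like cells. In MGJ its level was 59.7 (51 to 69.5) in endothelial-like, 38.5 in tendon fibroblast-like, 35.7 in fibroblast-like, 35 in mural-like, 30.6 in osteoblast-like and 18.1 (16.9 to 19.3) in chondrocyte-like cells. The 4 middle classes did not differ from their neighbours in this order beyond counting error, while the endothelial-like level was 1.55 (1.3 to 1.84) times the next and the chondrocyte-like level lay below the osteoblast-like one by a factor of 1.69 (1.3 to 2.17). In MGJ2 it was 69.3 (46.7 to 98.9) in endothelial-like and 36.2 (30.3 to 42.9) in chondrocyte-like cells. Yap1 was thus lowest in cartilage among the ranked stromal-like classes of both libraries. In blood classes it was at 0 UMIs in 7 of 12 in MGJ and 5 of 11 in MGJ2, and at most 2.75 (1 UMI) in MGJ and 0.542 (1 UMI) in MGJ2.

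Wwtr1, which encodes the paralogous coactivator TAZ, was likewise highest in endothelial-like cells of both libraries, and in MGJ it was next highest in cartilage. Its level in MGJ was 495 (469 to 522) in endothelial-like, 231 (227 to 235) in chondrocyte-like, 214 in tendon fibroblast-like, 199 in osteoblast-like, 171 in fibroblast-like and 115 (98 to 135) in mural-like cells. In MGJ2 it was 547 (480 to 621) in endothelial-like and 301 (283 to 319) in chondrocyte-like cells. The chondrocyte-like level was thus the lower of the 2 ranked stromal-like classes there, by a factor of 1.82 (1.57 to 2.09). Only the tendon fibroblast-like and osteoblast-like levels of MGJ were neighbours that did not differ beyond counting error among these stromal-like classes. The UMIs of Wwtr1 per UMI of Yap1 therefore changed with the class. They were 12.8 (11.9 to 13.7) in chondrocyte-like, 8.29 (7.05 to 9.8) in endothelial-like, 5.54 (5.08 to 6.06) in tendon fibroblast-like, 4.79 (4.31 to 5.34) in fibroblast-like and 3.29 (2.37 to 4.65) in mural-like cells of MGJ. In MGJ2 the chondrocyte-like value, 8.31 (6.93 to 10), overlapped the endothelial-like one, 7.9 (5.39 to 12).

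Wwtr1 was also counted above the Col2a1-scaled value in some blood classes, 7 of 12 in MGJ and 3 of 11 in MGJ2, neutrophil-like cells among them in both. In MGJ2 it reached 6.64 (4.95 to 8.73; 51 UMIs in 2245 cells), against a scaled value of 0.48, and in MGJ 7.29 (4.92 to 10.4; 30 UMIs in 1101 cells), against 2.28. The other ranked blood classes of MGJ2 lay between 0 and 1.11, whereas in MGJ myeloid progenitor-like cells had 7.92 (26 UMIs), against 2.45, and T-like cells 7.79 (6 UMIs), against 2.65. Within the MGJ2 neutrophil-like cells the level was 15.3 (9.72 to 23) in the 329 cells of a cluster with Cxcr2 and Cd101, surface proteins of mature neutrophils, among its leading genes, and 7.09 (4.59 to 10.5) in 1567 cells of a cluster with a marker, Csf3r, among its leading genes. It was 1.14 (0.234 to 3.32; 3 UMIs) in the 346 cells of a cluster led by Ly6g with Ltf and Ngp, which encode granule proteins of maturing neutrophils. Retnlg and Mmp8 were among the leading genes of both the first and the last of these clusters. In MGJ the cluster with Ltf and Ngp had 6.34 (3.82 to 9.91) in 570 cells, with an interval that overlapped those of the other neutrophil-like clusters. Yap1 gave 1 UMI and Tead1 2 UMIs in all these 2245 cells. Levels above the Col2a1-scaled value in blood classes were not particular to Wwtr1. The numbers of such classes in MGJ and MGJ2 were 9 and 8 for Ccn2 and 5 and 5 for Amotl2. They were 4 and 3 for both Tead1 and Ccn1, and 3 and 0 for Yap1. In MGJ neutrophil-like cells Ccn2 was at 28.9 against a scaled 13.2, and Ccn1 at 7.29 against 2.98.

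Tead1, a TEAD factor that carries YAP and TAZ to DNA, was the most even of the members across the stromal-like classes of MGJ. It ran from 75.3 (71 to 79.7) in tendon fibroblast-like to 105 (88.6 to 124) in mural-like cells, with 104 in fibroblast-like, 96.6 in chondrocyte-like, 92.5 in endothelial-like and 85.6 in osteoblast-like cells. Among these 6 classes only the fibroblast-like and chondrocyte-like levels differed from their neighbour in the order, with a ratio of 1.07 (1 to 1.14). In MGJ2 the endothelial-like level, 132 (99.7 to 170), was 1.85 (1.37 to 2.48) times the chondrocyte-like one, 71 (62.6 to 80.2). Its blood levels had a median of 1.82 over classes in MGJ and 0.23 in MGJ2.

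Lats2, the kinase that restrains YAP and TAZ, was the only member above its Col2a1-scaled value in every ranked blood class of both libraries. Its chondrocyte-like level was low, so few UMIs were enough to pass. The scaled values of these classes ran from 0.0887 to 1.25 in MGJ and from 0.0164 to 0.108 in MGJ2. Free RNA from endothelial-like or blood cells was not tested. Ccn2 was also counted in every ranked blood class, but not always above its scaled value. The highest level was in endothelial-like cells, 76.6 (66.7 to 87.7) in MGJ and 111 (81.7 to 147) in MGJ2. It did not differ from the next class beyond counting error. The ratio was 1.27 (0.882 to 1.88) over dendritic-like cells of MGJ and 1.06 (0.77 to 1.43) over T-like cells of MGJ2. In MGJ2 the next classes were T-like at 105 (95.1 to 115), B-like at 94.7 (81.4 to 110), NK-like at 81.8 (71.7 to 92.8) and monocyte-like at 71.8 (67.3 to 76.5), none of which differed from its neighbour beyond counting error. In MGJ the blood classes ran from 18.3 (13.9 to 23.5) in myeloid progenitor-like to 60.3 (41.8 to 84.3) in dendritic-like cells, with monocyte-like at 45.7 (41.3 to 50.4) and neutrophil-like at 27.2 (22.4 to 32.7). Chondrocyte-like cells had the lowest CPM of all 18 ranked classes of MGJ, at 14.3 (13.2 to 15.3). The next, myeloid progenitor-like cells, did not differ beyond counting error, at a ratio of 1.28 (0.968 to 1.67). In MGJ2 chondrocyte-like cells lay below the endothelial-like cells, at 35.9 (30 to 42.6). Only osteoclast-like cells of MGJ2, 14 (9.39 to 20.1), pre-B-like, 26.6, mast or basophil-like, 27.4, and myeloid progenitor-like cells, 33.7, lay below the chondrocyte-like level in that library. Per cell the order was different. Lats2 UMIs per 1000 cells of MGJ ran from 94.1 in erythroid-like to 755 in endothelial-like cells, with 301 in chondrocyte-like and 102 in neutrophil-like cells. In MGJ2 they were 1040 in chondrocyte-like, 960 in endothelial-like and 567 in T-like cells.

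Amotl2, an angiomotin-family scaffold that binds YAP and TAZ at the membrane, was highest in cartilage among the ranked classes. Its level was 107 (105 to 110.2) in chondrocyte-like cells of MGJ, followed by 59 in osteoblast-like, 54.8 in tendon fibroblast-like and 52.6 in fibroblast-like cells, which did not differ from one to the next, then 37.1 in endothelial-like and 28.5 (20.2 to 38.9) in mural-like cells. In MGJ2 it was 131 (119 to 143) in chondrocyte-like and 50.8 (31.8 to 76.9) in endothelial-like cells. Chondrocyte-like cells thus had the highest Amotl2 and the lowest Yap1 level of the ranked stromal-like classes. The 11 tendon fibroblast-like cells of MGJ2, too few to be ranked, had Amotl2 at 154 (104 to 220.5). In myeloid progenitor-like cells of MGJ2 it gave 42 UMIs, a level of 5.44 (3.92 to 7.36), and was at most 2.92 in the other blood classes of that library.

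Ankrd1, a muscle ankyrin-repeat protein often used as a YAP readout, was close to absent from the counts. In the named MGJ classes it gave 10 UMIs in tendon fibroblast-like, 8 in fibroblast-like, 3 in chondrocyte-like, 3 in endothelial-like and 1 in mural-like cells, and none in the 12 ranked blood classes. In MGJ2 it gave 3 UMIs in neutrophil-like cells and 1 in tendon fibroblast-like cells. None were counted in the 126 chondrocyte-like cells of MGJ2, which allows a level of up to 0.823. Its level was 0.65 (0.311 to 1.19) in tendon fibroblast-like and 0.0578 (0.0119 to 0.169) in chondrocyte-like cells of MGJ.

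Ccn1 (also Cyr61), a secreted matrix protein of the CCN family, was highest in cartilage, followed in MGJ by the cells of the vessel wall. In MGJ its level was 302 (297 to 307) in chondrocyte-like, 267 (248 to 287) in endothelial-like and 240.1 (215 to 268) in mural-like cells, against 149 in tendon fibroblast-like, 135 in osteoblast-like and 102 (96.5 to 108) in fibroblast-like cells. In MGJ2 it was 614 (589 to 640.4) in chondrocyte-like and 238 (194 to 288) in endothelial-like cells. It was also high in small classes of MGJ2 that were not ranked, at 800.2 (682 to 933) in 19 marrow stromal-like and 649 (540.4 to 772) in 11 tendon fibroblast-like cells. Blood classes reached at most 19.2 (7 UMIs, erythroid-like) in MGJ and 2.62 in MGJ2.

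Ccn2, the other CCN target, followed cartilage more closely. In MGJ it was 1333 (1323 to 1343) in chondrocyte-like, 564 (533 to 596) in osteoblast-like, 405 (395 to 415) in tendon fibroblast-like, 236 in fibroblast-like, 219 in mural-like and 168 (153 to 184) in endothelial-like cells. In MGJ2 it was 3128 (3071 to 3186) in chondrocyte-like and 106 (77.7 to 142) in endothelial-like cells, a ratio of 29.5 (22.1 to 40.3). The 21 osteoblast-like cells of MGJ2 reached 2072 (1960 to 2190) and the 19 marrow stromal-like cells 1149 (1006 to 1306). Osteoblast-like cells were a sub-cluster cut from chondrocyte-like clusters, and their Col2a1-scaled values were 396 in MGJ and 1359 in MGJ2, and the part of cartilage RNA in their Ccn2 level was not tested, whereas the marrow stromal-like cells had a scaled value of 1.69. In erythroid-like cells of MGJ, Ccn2 was counted at 277 (226 to 337), against a scaled value of 116. The other blood classes of MGJ lay between 10.6 and 41.1, and those of MGJ2 between 3.25 and 11.6.

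The UMIs of Ccn2 per UMI of Ccn1 separated the stromal-like classes further. The ratio was 4.42 (4.34 to 4.49) in chondrocyte-like and 4.19 (3.69 to 4.77) in osteoblast-like cells of MGJ, 2.71 (2.59 to 2.85) in tendon fibroblast-like and 2.31 (2.15 to 2.47) in fibroblast-like cells, and 0.912 (0.777 to 1.07) in mural-like and 0.632 (0.561 to 0.71) in endothelial-like cells. In MGJ2 it was 5.09 (4.87 to 5.33) in chondrocyte-like and 0.447 (0.308 to 0.638) in endothelial-like cells. Among the 6 ranked stromal-like classes of MGJ, chondrocyte-like and endothelial-like cells lay at opposite ends, and the osteoblast-like interval overlapped the chondrocyte-like one. The 21 osteoblast-like cells of MGJ2 had a ratio of 8.01 (6.79 to 9.51). In the MGJ blood classes with at least 10 UMIs of each gene it lay between 2.59 (1.86 to 3.65) in myeloid progenitor-like and 3.97 (2.64 to 6.13) in neutrophil-like cells.

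**Figure D2:**
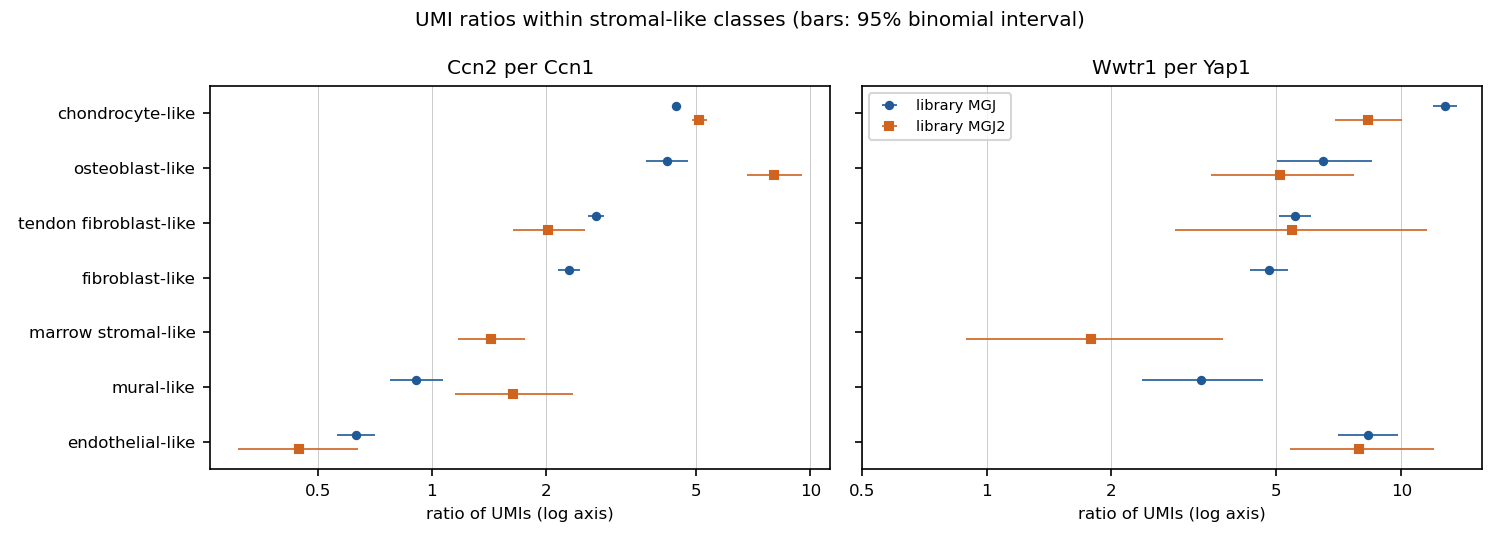
UMIs of Ccn2 per UMI of Ccn1 and of Wwtr1 per UMI of Yap1 (log axes) in the stromal-like classes of MGJ (circles) and MGJ2 (squares), with 95% binomial intervals. Ccn2 per Ccn1 falls from 4.42 in chondrocyte-like to 0.632 in endothelial-like cells of MGJ, whereas Wwtr1 per Yap1 is 12.8 and 8.29 in the same classes.

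Set over all other stromal-like cells, chondrocyte-like cells of MGJ were at least 2-fold higher in Ccn2, Amotl2 and Ccn1 and at least 2-fold lower in Yap1 and Lats2, 3 and 2 of 7 members tested. Of all genes, 8.76% were higher and 23.8% lower by this rule. The ratio was 4.05 (3.97 to 4.13) for Ccn2, 2.08 (1.97 to 2.19) for Amotl2, 2.07 (2 to 2.14) for Ccn1, 0.468 (0.43 to 0.51) for Yap1 and 0.443 (0.403 to 0.487) for Lats2. Amotl2 and Ccn1 lay just past the threshold and fell short of it under some alternatives, down to 1.95 and 1.55, and with each cell named by its own highest marker score the count was 1. The Yap1 and Lats2 ratios also missed 2-fold, at 0.531 and 0.502, with the most abundant genes left out of the denominator. Wwtr1, at 1.06 (1.03 to 1.09), and Tead1, at 1.09 (1.04 to 1.14), were close to even. In MGJ2, 126 chondrocyte-like cells were set over 110 others: 50 endothelial-, 21 osteoblast-, 19 marrow stromal-, 11 tendon fibroblast- and 9 mural-like cells. This was another mixture than in MGJ, where tendon fibroblast-like (895) and fibroblast-like cells (631) were the largest other classes. The osteoblast-like cells, cut from chondrocyte-like clusters, gave 1266 Ccn2 UMIs, and the endothelial-like cells 46. Ccn2 alone passed in MGJ2, at 2.6 (2.47 to 2.73), with 6.3% of all genes higher. None of the members was lower by the rule, against 18.6% of all genes. This Ccn2 ratio was 1.6, short of 2-fold, with naming by marker score and 5.88 at clustering resolution 0.5. Amotl2, at 1.63 (1.34 to 2), Ccn1, at 1.6 (1.46 to 1.75), Yap1, at 0.61 (0.465 to 0.805), and Lats2, at 0.542 (0.416 to 0.708), lay on the same side as in MGJ with intervals that did not include 1, and Tead1, at 0.705 (0.576 to 0.865), did not. The summed immediate-early and stress list was 2692 in chondrocyte-like and 3613 CPM in other stromal-like cells of MGJ and 4764 and 5559 CPM in MGJ2, and its part in these ratios was not tested. The reference channel Trpv4 was 6.61 (6.22 to 7.04) times higher in chondrocyte-like cells of MGJ and 3.12 (2.48 to 3.96) times in MGJ2, with ranges over the alternatives of 3.99 to 11.5 and 3.12 to 6.23, and Piezo1 gave 0.978 (0.938 to 1.02) and 1.32 (1.1 to 1.6).

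**Figure D3:**
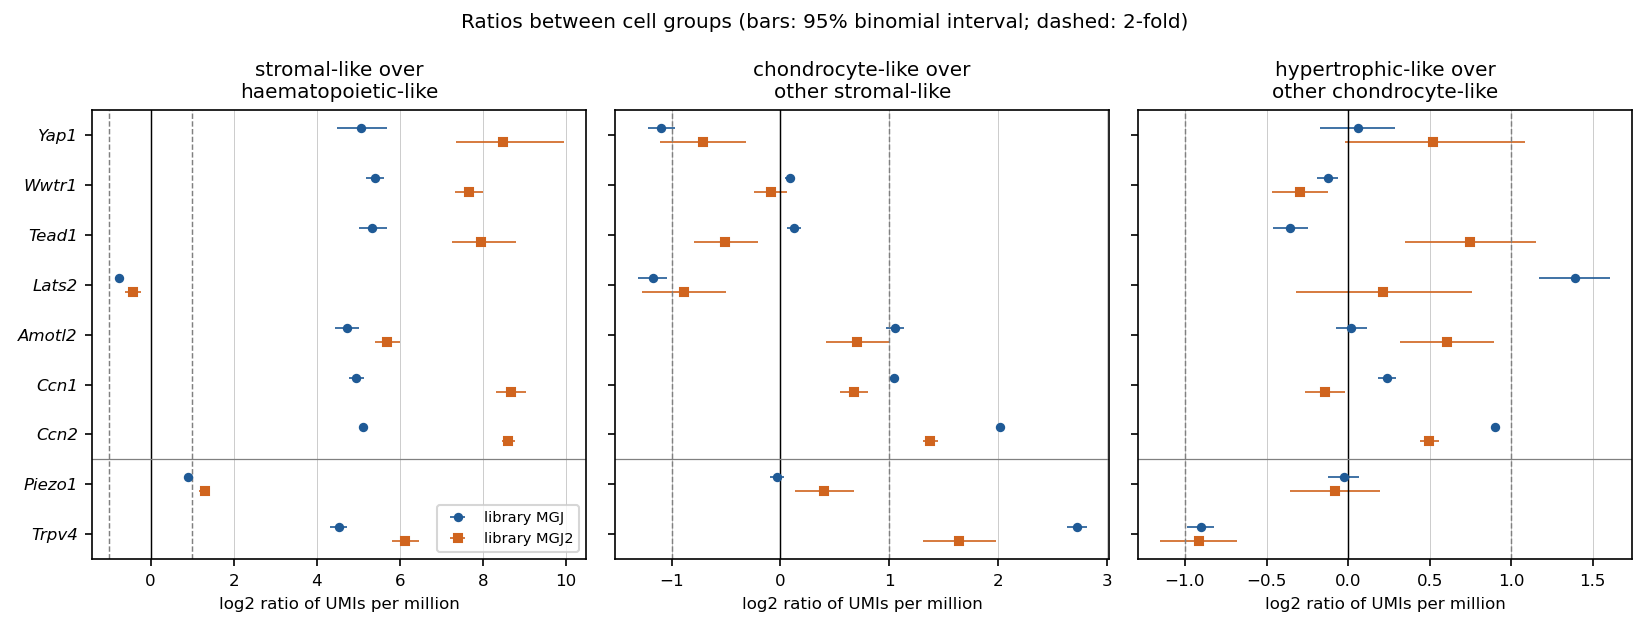
Log2 ratio of CPM between cell groups for 7 members and the channels Piezo1 and Trpv4 in MGJ (circles) and MGJ2 (squares), with 95% binomial intervals and dashed lines at 2-fold. Lats2 alone lies left of 0 in the stromal-like comparison (ratios 0.594 and 0.751), and Ccn2 lies farthest right of the members in the chondrocyte-like comparison of both libraries.

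Within cartilage, Ccn2 was higher in hypertrophic-like cells, the sub-cluster led by Pank1 and Col10a1, in both libraries, below 2-fold except with naming by marker score, where the MGJ ratio just passed 2. Of the class lists, the osteoblast list scored highest in this sub-cluster, which was called hypertrophic-like from the hypertrophic list. Ccn2 was 2105 (2077 to 2132) in 546 hypertrophic-like and 1126 in 1912 other chondrocyte-like cells of MGJ, a ratio of 1.87 (1.84 to 1.9), and 3543 (3464 to 3623) in 78 and 2509 in 48 cells of MGJ2, a ratio of 1.41 (1.36 to 1.47). Lats2 was the only member past 2-fold, in MGJ, at 27.8 (24.8 to 31.1) against 10.6, a ratio of 2.62 (2.25 to 3.04), where 7.77% of all genes were higher and 10.8% lower. It was 1.75 with each cell named by its highest marker score. It did not pass in MGJ2, at 38 against 32.8, a ratio of 1.16 (0.803 to 1.69), where no member passed in either direction while 8.77% of all genes were higher and 6.8% lower. Amotl2 was even in MGJ, at 1.01 (0.95 to 1.08), and at 1.52 (1.25 to 1.86) in MGJ2, and the Yap1 intervals, 0.889 to 1.22 and 0.985 to 2.12, included 1 in both libraries. Wwtr1 was slightly lower in hypertrophic-like cells of both libraries, with ratios of 0.918 (0.877 to 0.96) and 0.815 (0.723 to 0.92). The other chondrocyte-like cells differed in make-up, since 23 of 48 in MGJ2 and 271 of 1912 in MGJ belonged to 1 sub-cluster, led by Kctd14 and Id1. On the hypertrophic list this sub-cluster scored 0.954, just under the cut-off of 1 for hypertrophic-like cells. Lats2 in its MGJ2 cells was 54.2 (36.9 to 77). Tead1 and Ccn1 went opposite ways in the libraries, with ratios of 0.782 (0.726 to 0.842) and 1.68 (1.27 to 2.23) for Tead1 and 1.18 (1.14 to 1.22) and 0.906 (0.833 to 0.986) for Ccn1, of which the last became 1.13 when the set-aside and osteoblast-like sub-clusters were kept. Trpv4 was lower in hypertrophic-like cells of both, with ratios of 0.535 (0.505 to 0.565) and 0.53 (0.45 to 0.623). The summed immediate-early and stress list moved with this contrast, at 3407 against 2500.2 in MGJ and 5683 against 3395 in MGJ2, and its part was not tested.

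The 7 chondrocyte-like sub-clusters of MGJ showed more spread than this split. The members and the other pathway genes were left out of the genes used for clustering. Ccn2 ran from 662 (635 to 690.2) in the sub-cluster led by Ube2c, Pbk and Top2a, genes of dividing cells, to 2105 in hypertrophic-like cells, with 1617 in the sub-cluster led by Kctd14, Smim5, Slc40a1 and Id1 and 1551 in that led by Nos2 and Icam1. Ccn1 had a different order. It was highest in the dividing sub-cluster, 422 (400.3 to 444), and lowest, 93 (75.9 to 113), in 52 cells led by Saa1, Hp and Saa3, genes of the acute-phase response. Tead1 was also highest in the dividing sub-cluster, 137 (125 to 150.2), and lowest, 30.8 (25.9 to 36.4), in the Kctd14 and Id1 sub-cluster, where Amotl2 was 65.6 (58.3 to 73.5) in a range from 58.7 to 132 over the sub-clusters. Id1 is a target of bone morphogenetic protein signalling. In MGJ2 the 23 cells of the same sub-cluster had Tead1 at 42 (26.9 to 62.5) and Amotl2 at 59.5 (41.2 to 83.1), against 84.7 and 152 in hypertrophic-like cells. Lats2 in MGJ was 23.7 (19.4 to 28.7) in the Kctd14 and Id1 sub-cluster and 27.8 in hypertrophic-like cells, and between 5.42 and 11.6 in the other 5. In MGJ2 it was 54.2 (36.9 to 77) in the Kctd14 and Id1 sub-cluster and 38 (30.3 to 47.1) in hypertrophic-like cells. Yap1 ran only from 13.4 to 21.5.

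**Figure D4:**
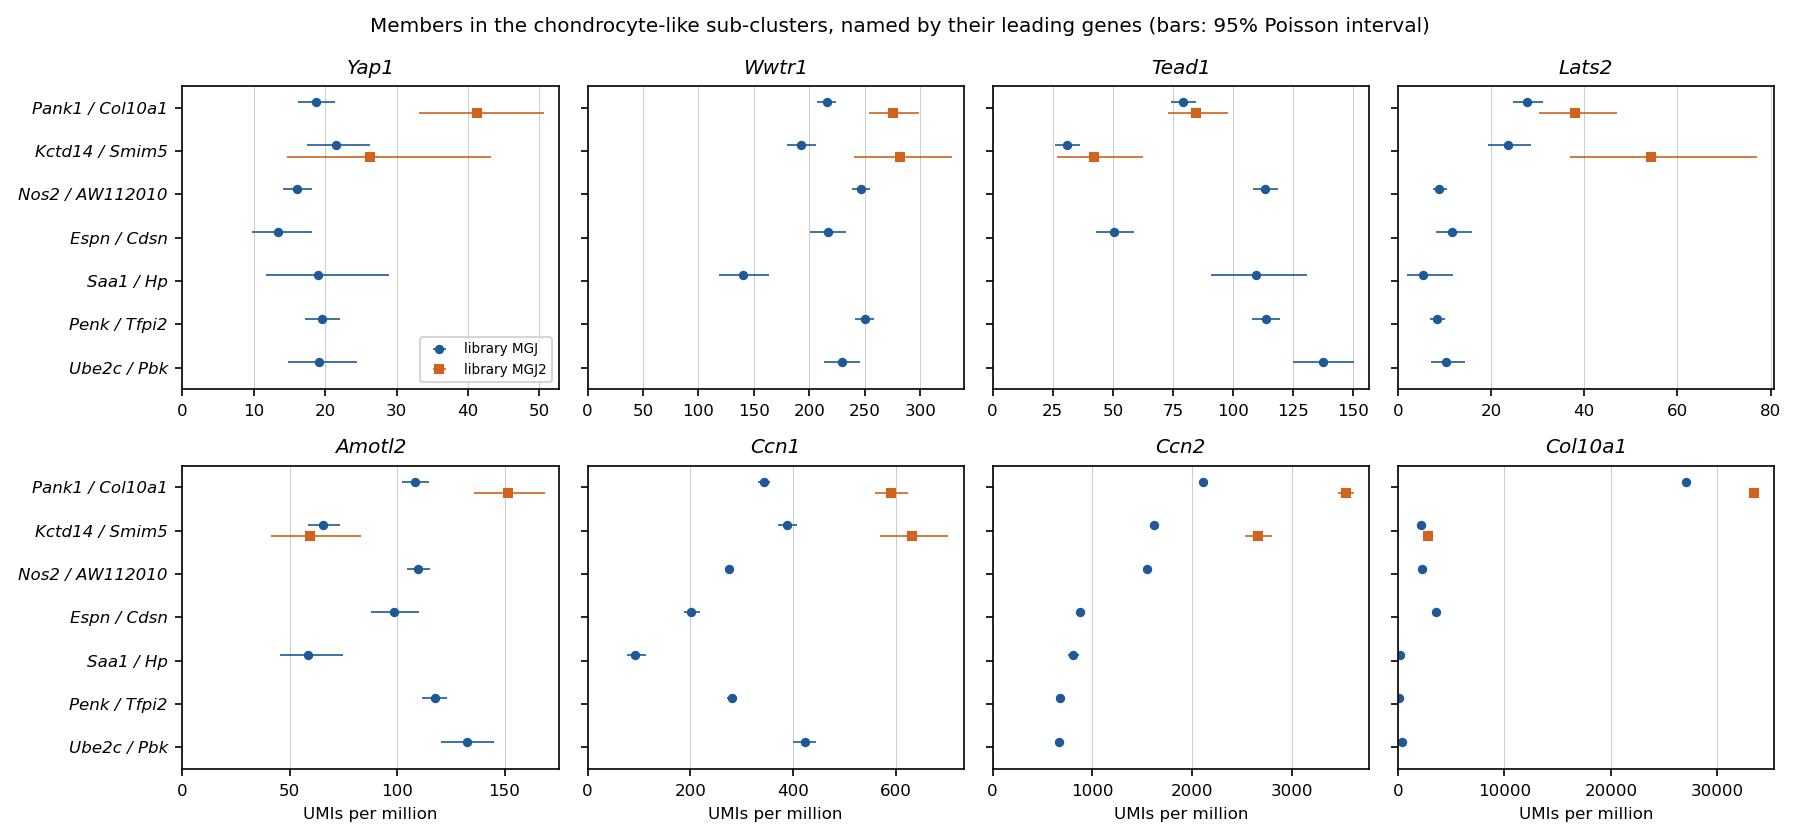
Levels (CPM) of 7 members and Col10a1 in the chondrocyte-like sub-clusters, each named by 2 of its leading genes and ordered by Ccn2 in MGJ (circles; squares, MGJ2), with 95% Poisson intervals. Ccn2 rises from 662 to 2105 in MGJ, whereas Tead1 is lowest (30.8) in the sub-cluster placed second for Ccn2 and Ccn1 is highest (422) in the one placed last.

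Shares of cells with a UMI gave the same picture after every cell was thinned to 2000 UMIs, with neutrophil-like cells as the low reference. In MGJ, 71% (69.2 to 72.8) of 2411 chondrocyte-like cells had a Ccn2 UMI, against 5.45% (3.95 to 7.29) of 771 neutrophil-like cells. Wwtr1 was counted in 35.9% against 1.17%, Ccn1 in 35.3% against 1.3%, Amotl2 in 17.7% against 1.17%, Tead1 in 15.8% against 0.389% and Yap1 in 3.15% against 0.13%. Lats2 was the reverse, in 2.53% (1.94 to 3.24) of chondrocyte-like and 4.93% (3.51 to 6.7) of neutrophil-like cells, so that its cartilage share was below the reference. In MGJ2, 85.4% (77.9 to 91.1) of 123 chondrocyte-like cells had a Ccn2 UMI, against 2.58% of 1667 neutrophil-like cells, and the Lats2 shares were 9.76% (5.14 to 16.4) and 9.54% (8.17 to 11.1). T-like and B-like cells of MGJ2 had Lats2 in 18.4% (15.7 to 21.4) and 18.8% (15.5 to 22.4). Thinning left out 47 chondrocyte-like and 330 neutrophil-like cells in MGJ and 3 and 578 in MGJ2. Unthinned, at median depths of 21079.5 and 3166 UMIs in MGJ, Yap1 was counted in 29.4% of chondrocyte-like and 0.0908% of neutrophil-like cells and Ccn2 in 92.7% and 9.9%. The median depths in MGJ2 were 27953 and 2483.

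**Figure D5:**
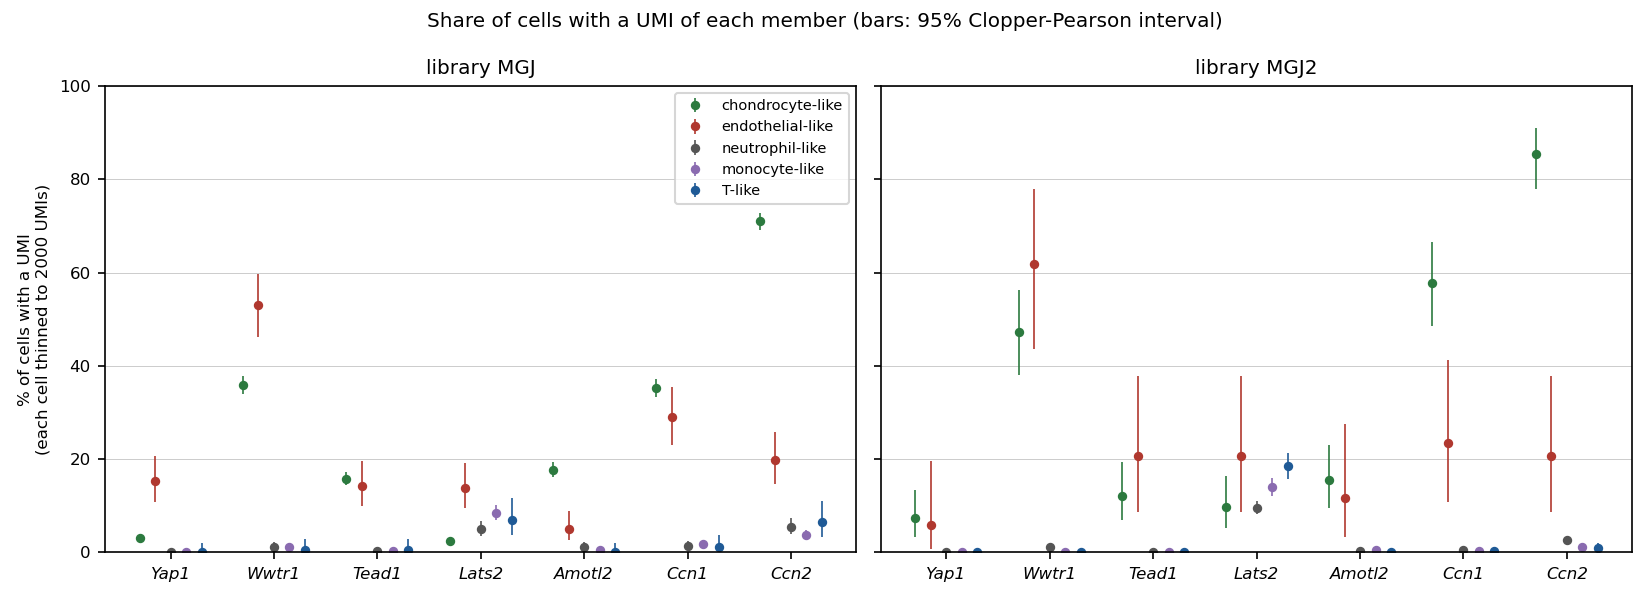
Share of cells with a UMI of each of 7 members after thinning to 2000 UMIs a cell, in 5 cell classes of MGJ (left) and MGJ2 (right), with 95% Clopper-Pearson intervals. Ccn2 is found in 71% and 85.4% of chondrocyte-like cells, and Lats2 is the member found in a larger share of T-like cells (6.95% and 18.4%) than of chondrocyte-like cells (2.53% and 9.76%).

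The other genes of the pathway were described as lists. Of 19 Hippo kinases and adaptors, 6 were higher and 4 lower in stromal-like than in haematopoietic-like cells of MGJ, and 6 higher and 3 lower of 18 tested in MGJ2, with median ratios of 0.759 and 1.08 against 1.14 and 0.901 over all genes. These shares were near those of all genes, of which 32% were higher and 19.1% lower in MGJ and 22.8% and 26.2% in MGJ2. The 5 higher in both libraries were Amot, Amotl1, Frmd6, Wtip and Wwc2, and the 3 lower in both were Mob1a, Stk4 and Taok3. Amotl1, a relative of Amotl2, had levels of 50.6 against 1.03 in MGJ and 85.9 against 0.419 in MGJ2. Stk4, the upstream Hippo kinase MST1, was at 15 against 106 in MGJ2. Lats2 and Stk4 thus both had lower levels in stromal-like than in blood cells, and Lats2 did not reach the 2-fold rule.

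Of 17 other YAP and TAZ targets, 12 were higher and 2 lower in stromal-like cells of MGJ and 11 higher and 2 lower of 16 tested in MGJ2, with median ratios of 16.4 and 22.3, where 32% and 22.8% of all genes were higher. Ccdc80, at 913 against 17.9 in MGJ, and Tgfb2, at 433 against 7.36, were among the 10 higher in both, and Dock5 and Nuak2 were lower in both. Set over other stromal-like cells, chondrocyte-like cells had 2 of these targets higher and 7 lower in each library, of 17 tested in MGJ and 14 in MGJ2, where 8.76% and 6.3% of all genes were higher and 23.8% and 18.6% lower. Igfbp3, which encodes a secreted binding protein of insulin-like growth factors, was at 10.9 against 166 in MGJ and 5.48 against 437 in MGJ2, and the receptor tyrosine kinase Axl at 4.95 against 58.7 and 3.56 against 25.5. The levels of Igfbp3 and Axl ran opposite to those of Ccn2 between the same cells, as did Asap1 and Rbms3 in both libraries. Ccdc80 and Nt5e were at least 2-fold higher in chondrocyte-like cells of both libraries, on the same side as Ccn2. In hypertrophic-like cells 3 targets were higher and 4 lower of 17 tested in MGJ (all genes, 7.77% and 10.8%), and 5 higher and 0 lower of 11 in MGJ2 (8.77% and 6.8%). In MGJ, Igfbp3, at 1.55 against 13.4, Ptpn14, at 10.4 against 34.1, and Fjx1, at 17.1 against 46.9, were lower. Crim1 passed in both libraries, at 102 against 30.8 in the remaining chondrocyte-like cells of MGJ and 144 against 31.4 in those of MGJ2.

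Among the remaining CCN genes, all 4 tested were higher in stromal-like cells of MGJ, as were 32% of all genes, and Ccn4 (WISP1) was higher in both libraries. Within the stroma of MGJ, Ccn3, at 3.02 against 107, Ccn5, at 4.72 against 57.5, and Ccn4, at 106 against 241, were lower in chondrocyte-like cells, and Ccn6, at 4.43 against 0.39, was higher. Ccn1, Ccn2 and Ccn6 were therefore on the cartilage side and Ccn3, Ccn4 and Ccn5 on the side of the other stroma in that library. Ccn4 did not pass in MGJ2, at 110.5 against 146, and the other 3 had too few UMIs there. Of the other TEAD and VGLL genes, Tead2 was higher in stromal-like cells of both libraries, at 5.11 against 0.374 and 8.24 against 0.579, and Vgll3 was at 1.29 in chondrocyte-like and 21.5 in other stromal-like cells of MGJ.

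Over the 31 classes of at least 50 cells, taking both libraries together, the members other than Lats2 and Ankrd1 had log2 levels that ran together, with Pearson r between 0.788 (Ccn2 and Yap1) and 0.967 (Wwtr1 and Yap1). Lats2 had r between -0.28 and 0.05 with the others. These points share 2 libraries, their depth and their free cartilage RNA, and the correlation is only a description. Blood classes, where these members other than Lats2 were low, made up 12 points of MGJ and 11 of MGJ2. The r values therefore include the difference between stromal-like and blood classes. Amotl2 and Yap1 had r of 0.904, although chondrocyte-like cells had the highest Amotl2 and the lowest Yap1 of the ranked stromal-like classes. Among 10120 genes, the nearest to Yap1 were Nckap1, Fermt2 and Cavin1 (r of 0.98 each), to Wwtr1 Dlc1, Hspg2 and Yap1 itself, and to Tead1 Fermt2, Dlc1 and Hspg2. The nearest to Amotl2 were Ackr3, Grb10 and Nrep, to Ccn1 Dlc1, Unc5b and Grb10, and to Ccn2 Enpp2, P3h2 and Bmp2. Those of Lats2, Tmod3, Ccnt1 and Nup98, were less alike, with r from 0.819 to 0.847.

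By annotation on GRCm38 (GENCODE M21), all 8 members are protein-coding genes. Ccn1 lies on chr3:145646976-145649981 (minus strand), Wwtr1 on chr3:57455649-57575910 (minus strand), Yap1 on chr9:7931999-8004596 (minus strand) and Amotl2 on chr9:102716672-102733418 (plus strand). Ccn2 lies on chr10:24595442-24598683 (plus strand), Tead1 on chr7:112679318-112906807 (plus strand), Lats2 on chr14:57689662-57758388 (minus strand) and Ankrd1 on chr19:36111961-36120099 (minus strand).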

How the data were processed

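Calluses were profiled with a 10x 3′ kit. The authors deposited raw UMI counts per gene and barcode, and the file headers name Cell Ranger 4.0.0, while the submitters' processing notes name GRCm38 and Seurat. Barcodes with under 200 genes or over 20% mitochondrial UMIs were removed, as were doublets called by Scrublet (138 of MGJ, 1.03% against 10.8% expected, and 238 of MGJ2, 3.05% against 6.24% expected), so doublets are likely to remain. The libraries held 135304426 UMIs in 14295 barcodes (MGJ) and 61130834 in 8009 (MGJ2), and 19 barcodes occurred in both.

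Counts were log-normalised and clustered together (scanpy 1.11.5, 2000 variable genes without the 67 listed pathway and stress genes, 30 components, leidenalg 0.10.2 at resolution 1). Clusters were named from 25 marker lists. The rules that let leading genes decide a name, and that judge osteoblast markers within chondrocyte sub-clusters (resolution 0.5), were set after the leading genes were seen. In 8 clusters, among them all 5 chondrocyte-like clusters, no marker of the class was among the 10 leading genes, so their names rest on the marker score alone. Of the kept cells, 4375 in MGJ, 3765 of them in clusters of low UMI count that scored as neutrophils, and 456 in MGJ2 stayed unnamed.

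Levels are summed counts per 1000000 with exact Poisson intervals, ratios have exact conditional binomial intervals, and shares have Clopper-Pearson intervals (scipy 1.17.1). The calculation of ratios was tested on simulated data. With 1 library without a group label each, no p-value was calculated. Members, gene lists and marker lists were chosen with earlier results of these data known. The genes named are the 8 members, Piezo1 and Trpv4, up to 4 per list with the largest ratio away from 1, and the 3 nearest genes to each member; genes of a list that passed in both libraries were named after their values were seen. Alternatives covered filters, doublets, resolution, naming, weighting, denominator, threshold and thinning.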

Additional observations from a re-analysis of the deposited data

Results flagged for a closer look

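The removed barcodes were those with few genes or many mitochondrial UMIs and the doublet calls, 138 in MGJ and 238 in MGJ2. They entered no main comparison, although an alternative kept the doublet calls. These barcodes still carried the 8 members above the level that a count of 0 allows. In MGJ the 973 removed barcodes held them at a summed level of 849 UMIs per 1000000 UMIs (819 to 879), against 1171 in the kept cells, and Ccn2 made up 53.4% of these UMIs. In MGJ2 the 441 removed barcodes held 154 per 1000000 (140.5 to 167), against 418 in the kept cells.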

How the results depend on the processing

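Of 104 counts of members computed under 15 alternatives, 98 stayed within 1.5 times the main count. The exceptions lay in chondrocyte-like and hypertrophic-like comparisons. All were counts of members called higher, because counts of lower members were not scored among the 104. At a ratio of at least 3, the members higher in chondrocyte-like cells fell from 3 to 1 in MGJ and from 1 to 0 in MGJ2, and those higher in hypertrophic-like cells of MGJ from 1 to 0. With each cell named by its highest marker score, the count in chondrocyte-like cells was 1 in MGJ and 2 in MGJ2, and at resolution 0.5 it was 2 in MGJ2. Calls of lower members, which the 98 of 104 does not cover, moved too. Yap1 and Lats2, lower in chondrocyte-like cells of MGJ at 0.468 and 0.443, do not reach 3-fold. With the most abundant genes left out of the denominator they missed 2-fold, at 0.531 and 0.502. Of 581 values of single genes, 138 moved, and 3 ratios whose interval excluded 1 crossed it. The Tead1 ratio, chondrocyte-like over other stromal-like cells of MGJ2, was 1.21 with naming by marker score, and that of Piezo1 was 0.965 with every cell weighted equally. The Ccn1 ratio, hypertrophic-like over other chondrocyte-like cells of MGJ2, was 1.13 when the set-aside and osteoblast-like sub-clusters were kept among chondrocyte-like cells, an alternative chosen after seeing the data. Their cause was not tested. Some ratios whose interval included 1 crossed it too, such as Wwtr1, chondrocyte-like over other stromal-like cells of MGJ2, at 1.57 with naming by marker score. Over the alternatives the stromal-like ratio of Lats2 stayed between 0.582 and 0.65 in MGJ and between 0.674 and 0.808 in MGJ2. Those of the other 6 members moved more, from 10 to 87.1 for Yap1, 13.4 to 249.8 for Tead1 and 12.6 to 483 for Ccn1 in MGJ, and from 37.5 to 277 for Amotl2 and 98.3 to 1356 for Tead1 in MGJ2. The chondrocyte-like ratio of Ccn2 lay between 2.61 and 4.59 and between 1.6 and 5.88. The stromal-like cells of MGJ2 number 236, of which 110 are not chondrocyte-like. No paired analysis was possible because each library is a single sample without a group.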
